A study of Mus musculus with 40 samples.

Results

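The Trav5-4 copies are 3 V segments of the mouse T cell receptor alpha locus (Tcra) that carry one subgroup name: Trav5d-4 (the D copy), Trav5n-4 (the N copy) and Trav5-4, the copy without a letter, called the original here. They were taken by name from the V-by-J count tables of thymus receptor transcripts, which together list 111 V segments, 106 of them in both replicate numbers. Trav5-1 has another subgroup number and was not included. The study asked what a binding site for CTCF, the protein that holds chromatin loops together at their ends, does at Ea, the enhancer that drives Tcra recombination. The site is called EACBE in the labels. The tables came from 2 EACBE-/- libraries and 2 EACBE+/+ libraries, all from thymocytes of C57BL/6 mice aged 4 to 8 weeks. Receptor RNA was copied by 5′ RACE, in which an adapter is added at the 5′ end of each transcript so that V segments are read without V-specific primers. Hi-C, a map of chromatin contacts, gave 1 boundary list each from EACBE-/-Rag1-/- and EACBE+/+Rag1-/- thymocytes. The Rag1-/- mice, which cannot recombine receptor genes, had been given an anti-CD3 antibody to obtain double-positive thymocytes.

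A T cell receptor alpha chain is made when a Trav segment is joined to one of the Traj segments that lie between the V array and the constant gene. The same chromosome can recombine more than once: early joins bring together V segments near the J array and Traj segments at its 5′ end, and later joins replace them with V segments farther away and Traj segments farther 3′. In C57BL/6 mice a central stretch of the V array has been duplicated, and the letters D and N mark the added copies, which share much of their sequence with the originals. The V segment supplies most of the variable domain, including the loops that contact the MHC molecule. The 3 copies thus hold the matching places in 3 repeats of the array, at 3 distances from the J segments.

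On GRCm38.p6 (the assembly behind mm10), Trav5d-4 lies on chromosome 14 from 53001713 to 53002231, Trav5n-4 from 53312904 to 53313422 and Trav5-4 from 53704007 to 53704514. Their distances to Traj58, the first J segment listed, are 1155 kb for the D copy, 843.9 kb for the N copy and 452.8 kb for the original. Counted from the outer end, they are the 35th, 61st and 96th of 106 listed V segments. The D copy and the original are 702.3 kb apart. Each copy has the matching neighbours on both sides: Trav4d-4 and Trav6d-7, Trav4n-4 and Trav6n-7, and Trav4-4-dv10 and Trav6-7-dv9. The Traj array is short by comparison, with 60.56 kb from Traj58 to Traj2, the last J segment listed.

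The tables held 19085 and 163953 counts in the EACBE-/- libraries and 10694 and 172388 counts in the EACBE+/+ libraries, for replicates 1 and 2 in turn, and each listed 43 Traj segments. Nothing in the labels says that the replicates came from separate mice, so p-values measure only the spread between these libraries. The sources used here leave unstated whether reads or receptors were counted, and the 95% Wilson intervals below cover counting error only. How reads were divided between near-identical copies is unstated too. Values of single copies are therefore uncertain, and the sum of the copies does not depend on that division. The tables do not read the deleted site, so they hold no check of the genotype labels.

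The original was used most, the D copy less and the N copy least in each of the 4 libraries, and within each library the intervals of the 3 copies did not overlap. Trav5-4 had 454 and 3848 counts in the EACBE-/- libraries, or 2.38% (95% interval 2.17 to 2.60%) and 2.35% (2.27 to 2.42%) of the table. In the EACBE+/+ libraries it had 183 and 2693 counts, or 1.71% (1.48 to 1.97%) and 1.56% (1.50 to 1.62%). Both EACBE-/- libraries thus lay above both EACBE+/+ libraries. The original ranked 9th of 106 V segments in both EACBE-/- libraries, against 19th and 16th in EACBE+/+.

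Trav5d-4 had 220 and 951 counts in EACBE-/- thymus, or 1.15% and 0.580% of the table, against 117 and 1211 counts in EACBE+/+ thymus, or 1.09% and 0.702%. The genotypes overlapped, and the 2 replicates of a genotype differed more than the genotypes did. Trav5n-4 had 22 and 8 counts in EACBE-/- thymus, or 0.115% and 0.00488%, against 12 and 13 counts in EACBE+/+ thymus, or 0.112% and 0.00754%. With so few counts, and shares that differed more between replicates than between genotypes, a difference of the N copy between genotypes was not detectable. The copies summed to 3.65% and 2.93% in the EACBE-/- libraries and 2.92% and 2.27% in the EACBE+/+ libraries. EACBE-/- replicate 2 and EACBE+/+ replicate 1 almost touched.

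**Figure D1:**
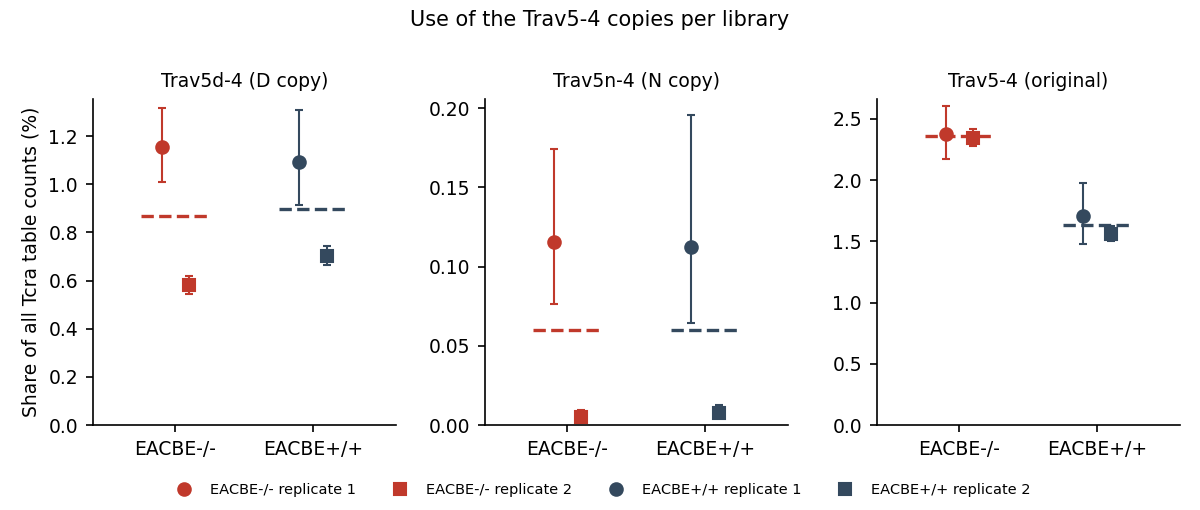
Share of all Tcra counts taken by each Trav5-4 copy (percent; the 3 panels have their own scales, each from 0), EACBE-/- left and EACBE+/+ right. Circles are replicate 1, squares replicate 2, bars 95% Wilson intervals and dashed lines group means; the genotypes are apart for Trav5-4 (2.38% and 2.35% against 1.71% and 1.56%), while for the D and N copies the replicates differ more than the genotypes.

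As group means, Trav5-4 took 2.36% ± 0.0225 of EACBE-/- counts and 1.64% ± 0.105 of EACBE+/+ counts (SD, n = 2 each), which is 1.44-fold higher in EACBE-/-. The sum took 3.29% ± 0.506 in EACBE-/- and 2.59% ± 0.456 in EACBE+/+ (SD, n = 2 each), or 1.27-fold higher. None of these passed the test across all V segments. The log2 change of Trav5-4 was 0.53 (SE 0.282, adjusted p = 0.377 in edgeR's quasi-likelihood test), that of Trav5d-4 -0.05 (SE 0.445, adjusted p = 0.966) and that of Trav5n-4 0.09 (SE 2.63, adjusted p = 0.990). Of the 106 segments tested, 6 passed an adjusted p of 0.05, or 5.66%, all lower in EACBE-/-. A share that was higher in EACBE-/- with no overlap between libraries, as for Trav5-4, was found for 27 segments, or 25.5%. The summed copies had a log2 change of 0.35 (SE 0.226, adjusted p = 0.360 in edgeR) among 54 summed segments, of which 8, or 14.8%, passed in either direction and 15, or 27.8%, were higher without overlap. The two-sided exact permutation test over 2 and 2 libraries gave p = 0.333 for Trav5-4 and for the sum, its smallest possible value.

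Over all duplicated V segments, the family included, 0 of 34 D copies and 0 of 27 N copies passed in this test, and of 33 unlettered segments that share a number with a copy, 1 passed, Trav7-2, which was lower. The median log2 change was -0.00 over the D copies, -0.14 over the N copies and 0.11 over the unlettered ones, against -0.13 over all V segments.

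Within the family, the balance between copies differed between the replicate numbers in both genotypes. The original held 65.2% and 80.0% of the summed counts in EACBE-/- libraries and 58.7% and 68.8% in EACBE+/+ libraries. The D copy held 31.6% and 19.8% in EACBE-/- and 37.5% and 30.9% in EACBE+/+. For each count of the original there were 0.485 and 0.247 counts of the D copy in EACBE-/-, against 0.639 and 0.450 in EACBE+/+. Each replicate number had the lower ratio in EACBE-/-, but EACBE-/- replicate 1 lay above EACBE+/+ replicate 2. On the log2 scale these ratios were -1.05 and -2.02 in EACBE-/- and -0.65 and -1.15 in EACBE+/+, and their means differed by -0.63 (two-sided exact permutation p = 0.667, n = 2 each).

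The N copy stood apart in its dependence on the replicate number. Its share was 23.6 times as high in replicate 1 as in replicate 2 of EACBE-/-, and 14.9 times as high in EACBE+/+. The same ratio was 1.99 in EACBE-/- and 1.56 in EACBE+/+ for the D copy, and 1.01 in EACBE-/- and 1.10 in EACBE+/+ for the original. Of 105 V segments with this ratio, 2 were at least 10 times as high in replicate 1 in both genotypes, Trav5n-4 and Trav15n-2. The N copies as a class did not move in this way: the 27 together held 14.4% and 13.7% of EACBE-/- counts and 13.5% and 15.7% of EACBE+/+ counts. The outer neighbour of Trav5n-4, Trav4n-4, held 0.393% and 0.502% in EACBE-/- (75 and 823 counts) and 0.271% and 0.853% in EACBE+/+ (29 and 1470 counts). The inner neighbour, Trav6n-7, held 0.0681% and 0.171% in EACBE-/- (13 and 281 counts) and 0.0842% and 0.119% in EACBE+/+ (9 and 206 counts). Both neighbours thus had the lower share in replicate 1 of each genotype. Depth and the set of segments listed both differed between the replicate numbers, and their part in the level of Trav5n-4 was not tested.

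The D copy and the original also differed in the Traj segments they were joined to. Traj segments were grouped as 5′ (Traj61 to Traj42, 13 listed), middle (Traj41 to Traj22, 16 listed) and 3′ (Traj21 to Traj1, 14 listed). Of Trav5d-4 counts, 15.9% and 28.5% were joins to 3′ Traj segments in EACBE-/- libraries, and 28.2% and 45.3% in EACBE+/+ libraries. Of Trav5-4 counts, 6.39% and 7.69% were 3′ joins in EACBE-/- libraries, and 4.92% and 7.65% in EACBE+/+ libraries. The D copy was above the original in every library, by 9.52 and 20.8 percentage points in EACBE-/- and 23.3 and 37.7 points in EACBE+/+.

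At the 5′ end the order was the reverse. Joins to 5′ Traj segments made up 29.5% and 13.8% of Trav5d-4 counts in EACBE-/- and 22.2% and 11.5% in EACBE+/+. For Trav5-4 they made up 47.4% and 51.3% in EACBE-/- and 59.6% and 59.2% in EACBE+/+. The D copy minus the original was -35.1 points on average over the 4 libraries (SD 12.5), lower in 4 of 4 (two-sided exact sign-flip permutation p = 0.125, the smallest that 4 libraries allow). For the 3′ class the D copy was 22.8 points above the original on average (SD 11.6, higher in 4 of 4, exact p = 0.125). Middle Traj segments took 54.5% and 57.7% of the D copy's joins in EACBE-/- and 49.6% and 43.2% in EACBE+/+, and 46.3% and 41.01% of the original's in EACBE-/- and 35.5% and 33.2% in EACBE+/+.

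The N copy had too few counts for a profile. Its 3′ joins were 5 of 22 and 1 of 8 counts in EACBE-/-, and 4 of 12 and 3 of 13 in EACBE+/+. Their Wilson intervals ran from 2.24 to 47.1% in EACBE-/- replicate 2 and from 8.18 to 50.3% in EACBE+/+ replicate 2, wide enough to hold the D copy's share in each. The original's share lay inside the interval in EACBE-/- replicate 2 (7.69%) and just under it in EACBE+/+ replicate 2 (7.65%).

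**Figure D2:**
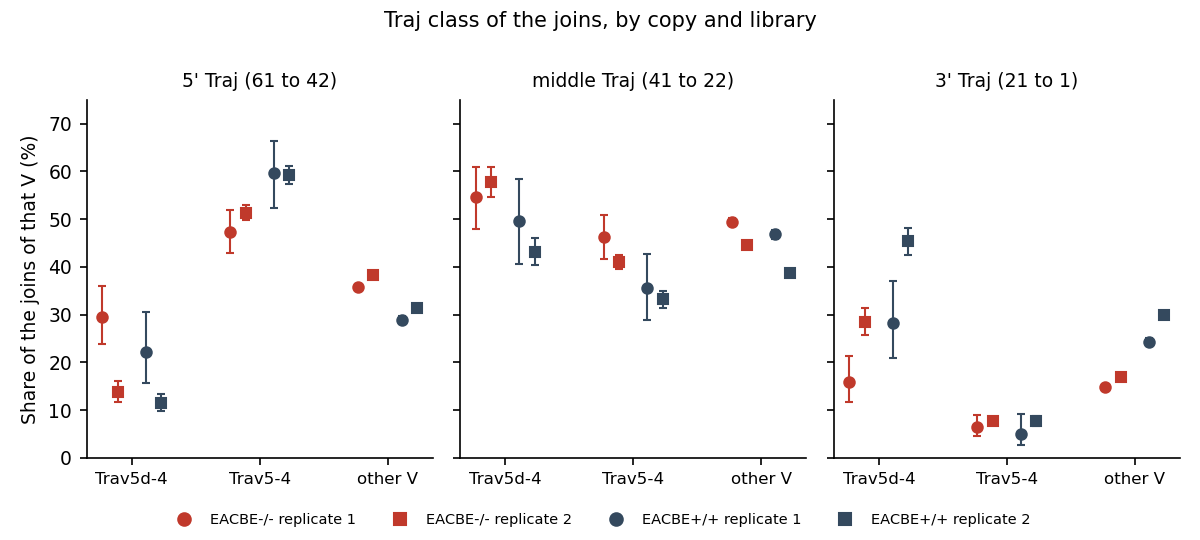
Share of the joins of Trav5d-4, of Trav5-4 and of all other V segments (percent) that used 5′, middle and 3′ Traj segments, EACBE-/- in red to the left of EACBE+/+ in blue. Circles are replicate 1, squares replicate 2 and bars 95% Wilson intervals; Trav5-4 stays under 8% for 3′ Traj in all 4 libraries, while Trav5d-4 holds 15.9% and 28.5% in EACBE-/- against 28.2% and 45.3% in EACBE+/+.

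The 2 copies differed from the rest of the locus in opposite ways. Trav5-4 had more 5′ joins than all other V segments together in every library, by 11.6 and 12.9 points in EACBE-/- and 30.7 and 27.8 points in EACBE+/+. Its 3′ share differed from theirs by -8.39 and -9.31 points in EACBE-/- and -19.3 and -22.2 points in EACBE+/+. The 5′ share of Trav5d-4 differed from that of the rest by -6.19 and -24.6 points in EACBE-/- and -6.68 and -19.9 points in EACBE+/+. Its 3′ share was above the rest by 1.134 and 11.5 points in EACBE-/- and by 3.95 and 15.5 points in EACBE+/+. Each of these 4 differences had one sign in all 4 libraries (exact sign-flip permutation p = 0.125 each, the smallest possible).

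The original's lead over the rest at the 5′ end was 12.3 points on average in EACBE-/- and 29.2 points in EACBE+/+, a difference of -16.9 points between the genotypes (exact permutation p = 0.333, the smallest that 2 against 2 libraries allow). Its values in the 2 genotypes did not overlap. The 5′ share of Trav5-4 itself differed by -10.0 points between EACBE-/- and EACBE+/+, and that of all other V segments by 6.89 points.

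Between the genotypes, Trav5d-4 differed most in its 3′ joins and Trav5-4 in its 5′ and middle joins. For Trav5d-4 the 3′ share was 22.2% ± 8.90 in EACBE-/- and 36.8% ± 12.1 in EACBE+/+ (SD, n = 2 each), a difference of -14.6 points, with -12.3 points between the replicates 1 and -16.8 points between the replicates 2. EACBE-/- replicate 2 and EACBE+/+ replicate 1 overlapped by a small margin. In edgeR's quasi-likelihood test of class shares within each V segment, the 3′ share of Trav5d-4 fell, with a log2 change of -0.74 (SE 0.224, adjusted p = 0.00664). In this test 68 of 103 segments, or 66.0%, had a lower 3′ share, so the call for the D copy is one that most V segments shared. The call was lost without EACBE-/- replicate 1 (log2 change -0.45, adjusted p = 0.457 by edgeR) and without EACBE+/+ replicate 2 (log2 change -0.22, adjusted p = 0.769 by edgeR). Without EACBE-/- replicate 2 it stayed, with a log2 change of -1.29.

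For Trav5-4 the 3′ share was 7.04% ± 0.923 in EACBE-/- and 6.28% ± 1.93 in EACBE+/+ (SD, n = 2 each), a difference within the spread between replicates (log2 change 0.03, adjusted p = 0.916 in edgeR). The 5′ share of Trav5-4 was 49.3% ± 2.79 in EACBE-/- and 59.4% ± 0.263 in EACBE+/+, and its middle share 43.6% ± 3.71 in EACBE-/- and 34.3% ± 1.67 in EACBE+/+ (SD, n = 2 each). The genotypes did not overlap in either class, but neither difference passed in edgeR (log2 change -0.26, adjusted p = 0.158, and 0.35, adjusted p = 0.0969). A lower 5′ share passed for 1 of 98 segments, or 1.02%, a higher one for 20, or 20.4%, and a higher middle share for 14 of 105, or 13.3%.

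Among the 37 V segments with at least 100 counts in each library, Trav5-4 ranked 36th from the highest for the difference in 5′ share, at -10.0 points, where the median was 5.44 points and the range -14.5 to 18.8. For 25 of the 37 the difference was above 0. A 5′ share lower in EACBE-/- with no overlap was found for 4 of them, or 10.8%, and a middle share higher with no overlap for 15, or 40.5%. In the 3′ class the original ranked 5th, at 0.756 points against a median of -7.70, and 32 of the 37 were below 0. Trav5d-4 ranked 20th for the 5′ class and 28th for the 3′ class. In the middle class Trav5d-4 ranked 8th, at 9.76 points, and Trav5-4 10th, at 9.29 points, and there the genotypes did not overlap for either copy.

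The position of the joins along the Traj array was measured without classes as well. The mean distance of the joined Traj from Traj58 was 26.95 and 33.2 kb for Trav5d-4 in EACBE-/-, against 31.4 and 38.0 kb in EACBE+/+. It was 21.8 and 21.2 kb for Trav5-4 in EACBE-/-, against 18.8 and 19.1 kb in EACBE+/+. The D copy's joins were nearer the V side in EACBE-/- within each replicate number, with overlap between genotypes, and the original's were farther from it, without overlap. Over all V segments the mean was 26.0 and 25.6 kb in EACBE-/- and 29.3 and 29.9 kb in EACBE+/+. The joins of the whole locus were thus nearer the V side in EACBE-/- too, without overlap. How many single V segments had no overlap in this measure was not counted. By the median join, the D copy reached Traj34 and Traj27 in EACBE-/- and Traj31 and Traj22 in EACBE+/+, and the original Traj40 and Traj42 in EACBE-/- and Traj43 in both EACBE+/+ libraries.

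**Figure D3:**
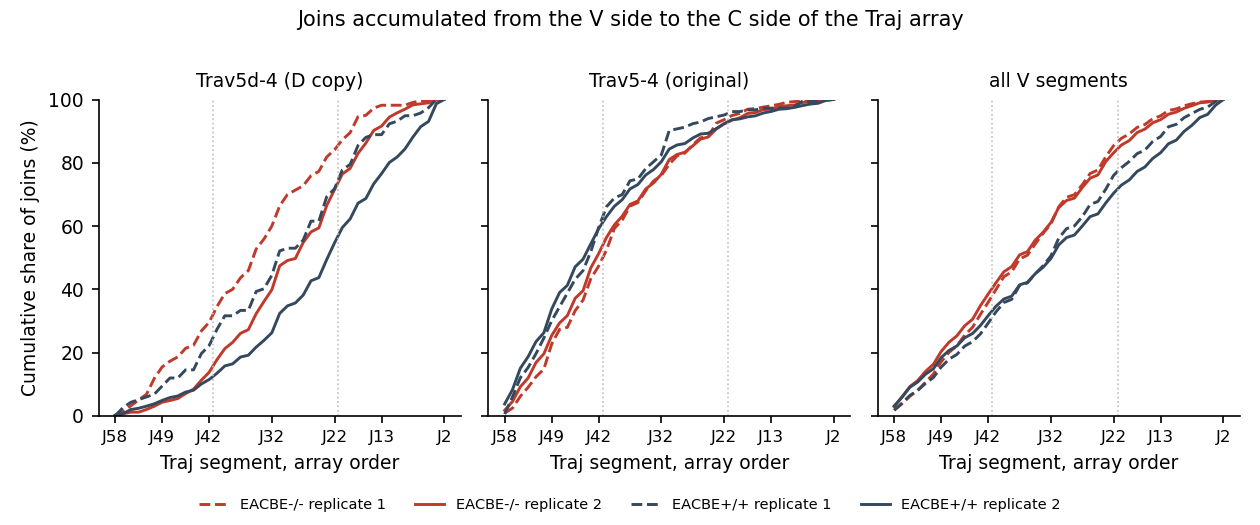
Cumulative share of joins (percent) from Traj58, nearest the V array, to Traj2, in array order, for Trav5d-4, Trav5-4 and all V segments. EACBE-/- is red and EACBE+/+ blue, replicate 1 dashed and replicate 2 solid, and dotted lines part the Traj classes; the red curves run above the blue ones of the same replicate from the end of the 5′ class on in Trav5d-4, and below them over the 5′ and middle classes, except at Traj58 in replicate 1, in Trav5-4.

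Summed over the copies, the differences of the D copy and of the original partly offset each other. The summed 5′ share was 40.8% and 43.8% in EACBE-/- and 43.6% and 44.3% in EACBE+/+, with overlap. The summed 3′ share was 9.91% and 11.8% in EACBE-/- and 14.7% and 19.4% in EACBE+/+, and the summed middle share 49.3% and 44.4% in EACBE-/- and 41.7% and 36.3% in EACBE+/+, both without overlap. Of 32 summed segments with at least 100 counts in each library, 28, or 87.5%, had a 3′ share lower without overlap and 16, or 50.0%, a middle share higher without overlap. The 3′ share of the sum fell in edgeR's test, with a log2 change of -0.69 (SE 0.196, adjusted p = 0.00285), a call found for 44 of 52 summed segments, or 84.6%. It was lost without EACBE-/- replicate 1 (log2 change -0.59, adjusted p = 0.153 in edgeR), without EACBE-/- replicate 2 (-0.84, adjusted p = 0.0754) and without EACBE+/+ replicate 2 (-0.40, adjusted p = 0.620). For the sum, edgeR gave an adjusted p = 0.152 for the middle share and 0.789 for the 5′ share.

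Split by source, the change of -6.18 points in the summed 3′ share had 4 parts. These were -4.41 points within the D copy, -0.206 within the N copy, 0.505 within the original and -2.07 from the changed weights of the 3 copies in the sum. The change of -1.65 points in the summed 5′ share was made up of -6.77 points within the original, 1.59 within the D copy, 0.0792 within the N copy and 3.46 from the weights. These parts are averages over all pairs of an EACBE-/- and an EACBE+/+ library and carry no test. The part from the weights depends on how reads were divided between the copies.

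By single Traj segment, the summed copies were joined most to Traj31, Traj43, Traj49, Traj40 and Traj45, at 5.48%, 5.43%, 5.21%, 4.70% and 4.27% of their joins averaged over the 4 libraries. The D copy's 5 leading partners were Traj31, Traj23, Traj17, Traj34 and Traj21, and the original's were Traj49, Traj43, Traj56, Traj45 and Traj42. No Traj was among the 5 of both copies.

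The Traj segments nearest the V array were mostly partners of the original. Traj57 took 1.54% and 2.81% of its joins in EACBE-/- and 5.46% and 4.53% in EACBE+/+. Traj56 took 3.74% and 4.63% in EACBE-/- and 6.01% and 6.76% in EACBE+/+. Both were lower in EACBE-/- without overlap. Over all V segments the genotypes overlapped for both, with Traj57 at 2.02% and 3.12% in EACBE-/- and 2.263% and 2.74% in EACBE+/+. Traj43, toward the other end of the 5′ class, took 6.83% and 7.25% of the original's joins in EACBE-/- and 6.01% and 4.90% in EACBE+/+, higher without overlap. Over all V segments Traj43 was higher without overlap too, at 4.06% and 4.29% in EACBE-/- and 2.45% and 2.52% in EACBE+/+. Traj42, the last of the class, took 3.96% and 4.50% of the original's joins in EACBE-/- and 7.65% and 4.79% in EACBE+/+. It was lower without overlap, as were Traj53 and Traj50 (these 3 named after their values were seen). Over all V segments these 3 were higher in EACBE-/- without overlap, with Traj42 at 3.87% and 3.70% in EACBE-/- and 3.45% and 3.15% in EACBE+/+. Other Traj segments of the original had no overlap either, some higher and some lower, so a lack of overlap was common among them. By itself it sets none of the named segments apart. For Traj50 the margin was small, at 2.73% in EACBE-/- replicate 2 against 2.79% in EACBE+/+ replicate 2. For Traj58, with 4 and 67 counts in EACBE-/- and 1 and 101 in EACBE+/+, the genotypes overlapped.

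At the far end, Traj4 took 0.455% and 0.841% of the D copy's joins in EACBE-/-, or 1 and 8 counts, against 2.56% and 5.62% in EACBE+/+, or 3 and 68 counts. Traj2 was joined to the D copy in 0 and 2 counts in EACBE-/- and 0 and 16 in EACBE+/+. The original had 1 and 16 counts with Traj4 in EACBE-/- and 1 and 24 in EACBE+/+. Summed over copies, Traj4 had 2 and 24 counts in EACBE-/- and 5 and 93 in EACBE+/+. Over all V segments Traj4 took 0.445% and 0.590% of joins in EACBE-/- and 1.73% and 2.87% in EACBE+/+. Traj2 took 0.178% and 0.215% of them in EACBE-/- and 0.664% and 1.84% in EACBE+/+. Both were lower in EACBE-/- without overlap, so the lower shares were not particular to this family.

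Across all V-J pairs, 81 of 2417, or 3.35%, passed in edgeR in either direction, and 0 pairs of the separate copies did. Of the D copy's 29 tested pairs 2 had an unadjusted p under 0.05, and of the original's 35 tested pairs 6 did, against 420 of all 2417 pairs, or 17.4%. No pair of the N copy had enough counts to be tested. Of the original's 35 log2 changes 31 were above 0, with a median of 0.66, which includes the higher use of the segment itself. The median over all 2417 pairs was 0.09. A pair could pass the count filter through the libraries of 1 genotype alone, as the original's pair with Traj18 did through EACBE-/-. With TMM factors 1 pair of the separate copies passed, Trav5d-4 with Traj4 (named here after its values were seen; adjusted p = 0.0369, against 0.0523 without these factors, in edgeR). DESeq2 called 0.

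With copies summed, 1 of the family's 41 tested pairs passed, the join to Traj4, which fell with a log2 change of -1.91 (SE 0.588, adjusted p = 0.0420 in edgeR). Of 1644 summed pairs 156, or 9.49%, passed in either direction, and 133, or 8.09%, were lower. Its call was lost with TMM factors (adjusted p = 0.0536 in edgeR) and without EACBE-/- replicate 1 (adjusted p = 0.125) or replicate 2 (adjusted p = 0.366). Without EACBE+/+ replicate 2 the pair had too few counts to be tested.

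The Traj profiles of the copies were set against their places in the array. This used the 91 V segments with at least 200 counts in both replicate 2 libraries. Over them the 3′ share tended to be higher farther from Traj58, with a Spearman rho of 0.576 in EACBE-/- and 0.679 in EACBE+/+. The rise was not steady: the share was highest for Trav3n-3, 873.1 kb away, at 35.9% in EACBE-/- and 59.7% in EACBE+/+. Trav6-2, the farthest at 1489 kb, had 21.1% in EACBE-/- and 35.8% in EACBE+/+. For the 5′ share rho was -0.529 in EACBE-/- and -0.584 in EACBE+/+. These segments share a library and include near-identical copies, and the coefficients are given as descriptions without a test. Trav5d-4 ranked 15th from the highest for the 3′ share in EACBE-/- and 20th in EACBE+/+, and Trav5-4 ranked 84th in EACBE-/- and 87th in EACBE+/+. For the 5′ share Trav5-4 ranked 11th in EACBE-/- and 7th in EACBE+/+, and Trav5d-4 87th in EACBE-/- and 88th in EACBE+/+.

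**Figure D4:**
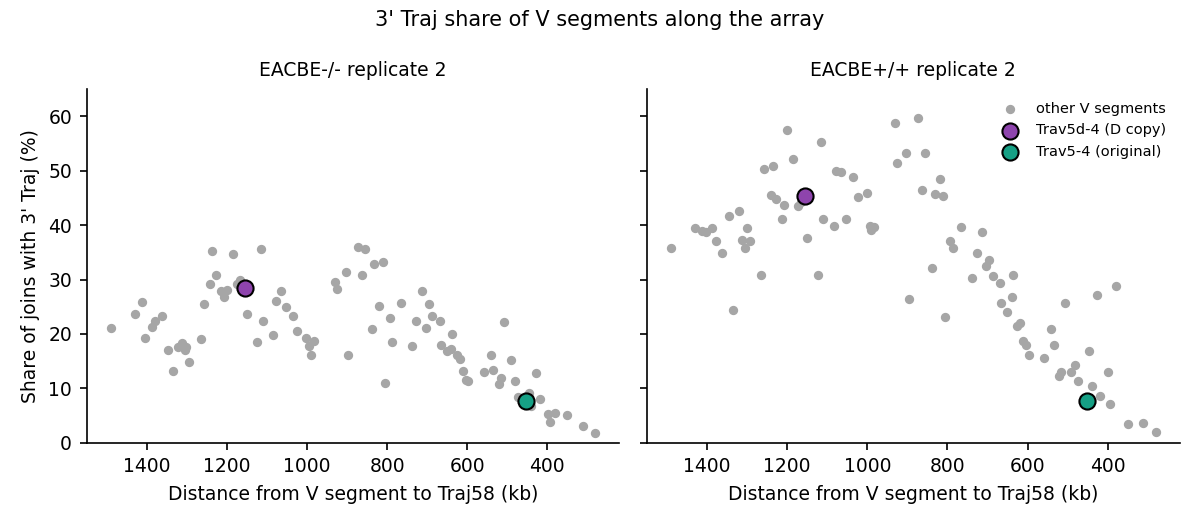
Share of each V segment's joins that used 3′ Traj segments (percent) against its distance from Traj58 (kb, far end of the V array to the left) in EACBE-/- replicate 2 (left) and EACBE+/+ replicate 2 (right). Grey points are other V segments. Trav5d-4 (purple, 28.5% against 45.3%) lies among segments at like distances, as does Trav5-4 (green, 7.69% against 7.65%) in EACBE-/-. In EACBE+/+ Trav5-4 lies below its neighbours Trav4-4-dv10 (11.3%) and Trav6-7-dv9 (17.0%).

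Likeness of profiles was measured by the total variation distance, which is 0 for identical Traj profiles and 1 for profiles with no Traj in common, in the replicate 2 libraries over 89 V segments with at least 200 counts. The segments nearest to Trav5-4 were Trav6-7-dv9 (0.110), Trav4-4-dv10 (0.113) and Trav7-6 (0.122), against a median of 0.365. The first and second are its own neighbours, and the third lies 12.75 kb away. Nearest to Trav5d-4 were Trav9d-4 (0.128), Trav3d-3 (0.130) and Trav7n-4 (0.133), against a median of 0.235. By contrast, the distance between the D copy and the original was 0.477. Set against the 89, which leave out the copies, the original would rank 84th for the D copy and the D copy 82nd for the original. The summed copies were most like Trav6-7-dv9 (0.106), Trav9-4 (0.120) and Trav4-4-dv10 (0.121). Counting noise adds to these distances, most for segments with few counts.

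The neighbours of the D copy and of the original were read in the same way. Beside the D copy, the 3′ share of Trav4d-4 was 22.3% and 29.99% in EACBE-/- and 34.0% and 44.2% in EACBE+/+, and that of Trav6d-7 was 20.0% and 23.7% in EACBE-/- and 28.9% and 37.6% in EACBE+/+. Beside the original, the 5′ share of Trav4-4-dv10 was 48.8% and 48.7% in EACBE-/- and 52.6% and 49.3% in EACBE+/+, and that of Trav6-7-dv9 was 51.4% and 51.7% in EACBE-/- and 55.5% and 49.1% in EACBE+/+. In EACBE-/- these 5′ shares were close to those of Trav5-4 (47.4% and 51.3%), while in EACBE+/+ both neighbours were below Trav5-4 (59.6% and 59.2%) in each library. In the 3′ class Trav4-4-dv10 held 5.93% and 8.36% in EACBE-/- and 5.59% and 11.3% in EACBE+/+, and Trav6-7-dv9 held 5.26% and 9.08% in EACBE-/- and 11.7% and 17.0% in EACBE+/+. In edgeR's test of class shares the 3′ share of Trav6-7-dv9 fell (log2 change -0.96, adjusted p = 0.000243), while that of Trav4-4-dv10 did not pass (-0.37, adjusted p = 0.195), nor did that of Trav5-4. The differences between these segments were not tested.

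The Hi-C boundary lists placed the original next to a boundary in both genotypes. With 1 library per genotype no test is possible. In EACBE-/-Rag1-/- thymocytes the nearest 20 kb boundary bin ran from 53700001 to 53720000, with a centre 5.739 kb from the middle of Trav5-4 and a score of 0.517 in the authors' list. In EACBE+/+Rag1-/- thymocytes the nearest bin was the adjoining one, from 53680001 to 53700000, with a centre 14.26 kb away and a score of 0.588. The D copy was 372.0 kb from its nearest boundary in both lists, and the N copy 396.8 kb in EACBE-/-Rag1-/- and 376.8 kb in EACBE+/+Rag1-/-. The bin in EACBE-/-Rag1-/- contains Trav5-4, and the one in EACBE+/+Rag1-/- lies before it. The lists held 533 boundaries on chromosome 14 in EACBE-/-Rag1-/- and 400 in EACBE+/+Rag1-/-. A shift by 1 bin is the smallest the lists can show.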

How the data were processed

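Of the series, 8 receptor tables (4 of Tcra and 4 of the delta locus, Trd) and 2 Hi-C boundary lists were used, grouped by the genotype in the labels; the T cell receptor beta tables and the chromatin libraries were not used here. The authors deposited each receptor library as whole-number counts per V and J segment, made by 5′ RACE per the labels' protocols. The deposited boundary lists give a score per 20 kb bin, per the file headers. The genome build mm10 and the tools Juicer 1.13.02, HiC-Pro 2.11.1, bedtools 2.26.0, Bowtie2 (2.20.8, also 2.3.4.3) and cutadapt 0.4.4 are listed, per the submitters' processing notes, with no step for any of them; the sources used here do not name the tool that assigned segments. If counts are reads, amplification adds to the spread between libraries.

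Counts were tested with edgeR 4.0.16 (R 4.3.3; glmQLFit and glmQLFTest), library sizes set to table totals without TMM factors, filterByExpr (minimum count 10, minimum total 15), and Benjamini-Hochberg adjustment over all features tested at 0.05. Standard errors are the log2 change divided by the square root of the quasi-likelihood F. Rows that differ only by the letter D or N were also summed, in all families. The 5 Trdv segments listed in 1 replicate number were left out of the tests. Class shares within V segments were fitted with each segment's total as offset, a test chosen after seeing the data; classes of one segment are not independent. Single values were compared by exact permutation over libraries, two-sided. The tests were run on simulated data first. Python 3.11.15, scipy 1.17.1 and pandas 2.3.3 did the rest. Coordinates are from RefSeq on GRCm38.p6, where 154 of 154 V and Traj symbols matched.

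The members, lists and tests were chosen with earlier results of these data known. The text names the copies and their sum, the 5 Traj segments most joined to the sum, Traj61 (not listed), Traj58, Traj57, Traj56, Traj4 and Traj2, pairs past the threshold, and the 3 V segments with the most similar Traj profile; the leading partners and nearest profiles of single copies were added after seeing the data. Alternatives were TMM factors, DESeq2 1.42.0, other filters and totals, other classes, each V-J pair counted once, single copies left out, each library left out and the replicate number as a block; profiles of single copies, the fit within V segments and sums across DV suffixes were added after seeing the data.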

Additional observations from a re-analysis of the deposited data

Results flagged for a closer look

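Trav5-4 joins also appeared outside the Tcra tables, in the deeper tables of the T cell receptor delta locus, which lies inside Tcra. In EACBE-/- replicate 2 Trav5-4 had 18 counts, 17 with Trdj1 and 1 with Trdj2, of 47158, or 0.0382% (95% Wilson interval 0.0241 to 0.0603%). In EACBE+/+ replicate 2 it had 12 counts, all with Trdj1, of 28093, or 0.0427% (0.0244 to 0.0747%). Both were above the share that a count of 0 allows, 0.00636% in the EACBE-/- table and 0.0107% in the EACBE+/+ table, and their intervals overlapped between the genotypes. Trav5d-4 and Trav5n-4 had 0 counts in these tables. The replicate 1 tables, with 5615 counts in EACBE-/- and 1744 in EACBE+/+, did not list the copies, and at their depth 0 counts allow a share of up to 0.0534% in EACBE-/- and 0.172% in EACBE+/+, above the values of replicate 2.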

How the results depend on the processing

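Of 247 alternative values for 43 results, 190 were labelled the same as the main value. For tested values this meant the same direction and the same side of the 0.05 threshold. For counts of pairs it meant the same number called, and for boundary distances a change of at most 20 kb. The exact permutation p-values of class shares in points and of copy ratios cannot reach 0.05 with so few libraries. For those results the label therefore reflects direction alone. The log2 change of Trav5d-4 use turned to 0.00015 with TMM factors, and over the fits without 1 library it ran from -0.62 to 0.37, with positive values without EACBE-/- replicate 2 (0.37) or EACBE+/+ replicate 1 (0.29). That of Trav5n-4 ran from -3.40 (without EACBE-/- replicate 1) to 2.88, with -1.01 without EACBE+/+ replicate 2. Those of Trav5-4 (0.47 to 0.60) and the sum (0.17 to 0.53) did not change sign in these fits.

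Blocking on the replicate number moved most calls: V segments called went from 6 to 49 (23 higher, 26 lower), Trav5-4 passed (log2 change 0.54, adjusted p = 0.00391 in edgeR), the sum passed (0.35, adjusted p = 0.00111) and Trav5n-4 turned to -0.24. Member pairs called under the block were 16 with copies apart and 18 with copies summed, and Trav5d-4 with Traj4 passed (-2.92). Within V segments the block added calls for the middle class of Trav5d-4 (0.35), the 5′ (-0.23) and middle (0.32) classes of Trav5-4 and the middle class of the sum (0.28). Same-numbered libraries deviated together over 106 V segments (correlation 0.849, with a pseudocount of 0.5), but the labels give no shared source and 2 pairs are too few to show pairing.

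Pairs called with copies apart were 1 with TMM factors and 0 to 1 without 1 library. With copies summed they were 0 with TMM factors, 0 in DESeq2 and 0 to 1 without 1 library. The pair of the sum with Traj4 ran from -2.28 to -1.82 without 1 library.

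Within V segments and without 1 library, the log2 change of class shares ran from -0.23 to 1.05 (5′, with -0.03 without EACBE-/- replicate 1, -0.23 without EACBE+/+ replicate 2 and a call, 0.70, without EACBE+/+ replicate 1) and from -1.29 to -0.22 (3′) for Trav5d-4, from 0.27 to 0.44 (middle, with a call, 0.37, without EACBE+/+ replicate 1) and from -0.14 (without EACBE-/- replicate 2) to 0.58 (3′, with -0.05 without EACBE+/+ replicate 1) for Trav5-4, and from -0.84 to -0.40 (3′) for the sum.

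In percentage points, EACBE-/- minus EACBE+/+, the 5′ difference of the sum turned to 4.90 with the array split at Traj32 and to 4.87 without Trav5-4, and its 3′ difference to 0.227 without Trav5d-4. The 5′ difference of Trav5d-4 turned to -3.08 without EACBE-/- replicate 1 and -0.562 without EACBE+/+ replicate 2 (range -3.08 to 12.7), and the 3′ difference of Trav5-4 to -0.609 without EACBE+/+ replicate 1 (range -0.609 to 2.12). Against all other V segments, leaving Trav5-4 out of the sum turned its 5′ difference to -14.9, its middle one to 6.70 and its 3′ one to 8.20. When every V-J pair was given a weight of 1, the difference turned to -0.246 (5′) and 1.09 (middle) for the sum, 0.278 (5′) and -0.912 (middle) for Trav5d-4 and 0.149 (middle) for Trav5-4, whose middle difference between genotypes turned to -3.34; replicate 2 held nearly every pair, so this measure mostly counts segments. The log2 ratio of Trav5n-4 to Trav5-4 ran from -3.10 to 1.45, with 1.06 without EACBE+/+ replicate 1 and 1.45 without EACBE-/- replicate 2. Among boundaries at or above the median score of their list, the nearest to Trav5d-4 in EACBE-/-Rag1-/- was 632.0 kb away.

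Where a value changed, the cause was not tested. Fits without 1 library leave a genotype with 1 sample, assumed to vary like the other genotype. Low counts limit the N copy, at 8 to 22 per library in shallow and deep libraries alike. They also limit the 3′ joins of the copies in EACBE+/+ replicate 1.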
